A study of Mus musculus with 2 samples.

Results

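The aminoacyl-tRNA synthetases were examined as a gene family in ribosome footprints from the polysomes of neonatal mouse brain. Members were the genes whose symbol is the letter of an amino acid followed by ars, with the bifunctional Eprs, the subunit genes Farsa and Farsb and the Tars-like gene Tarsl2 added, provided that the gene had a protein-coding transcript. This gave 38 genes out of 45578 in the deposited table, and out of 21874 with a protein-coding transcript. Symbols ending in 2 were taken as mitochondrial (17 genes) and the others as cytosolic (21 genes). Tarsl2 ends in 2 but encodes a cytosolic threonyl-tRNA synthetase, so it was counted with the cytosolic enzymes.

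Both samples were brains of control mice at postnatal day 5 with the genotype Smn+/-; SMN2tg/0 on the FVB strain background, labelled biological replicates 1 and 2. The mice belong to the Taiwanese line used to study spinal muscular atrophy. Both animals were thus heterozygous for Smn, the gene for the survival motor neuron protein, and carried the human SMN2 transgene. They form a single group (n = 2), and no comparison between groups can be made. The libraries held 1866831 footprints in replicate 1 and 5261878 in replicate 2, so replicate 2 is the more precise by depth. The label of brain was checked against marker genes. All 6 of 6 neuronal markers had footprints in both libraries, at a summed level of 6756 and 5188 CPM, that is, counts per 1000000 footprints of the library. Alb, the albumin gene that defines liver, had a count of 0 in both. That count allows a level of up to 1.61 CPM in the first and 0.570 CPM in the second library. Of the other liver markers listed, Apoa1 had counts of 1 and 6 and Serpina1a of 0 and 2. Ttr, which was also listed for choroid plexus, had 582 and 277 CPM. The sample is whole tissue, so fewer cells of a type and fewer footprints per cell cannot be told apart.

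Aminoacyl-tRNA synthetases join each amino acid to its own tRNA and so set which residue a codon is read as. Cytosol and mitochondria each need a full set of charged tRNAs, and most amino acids have a separate nuclear gene for each compartment. Gars and Kars supply both compartments from the same gene, and mitochondria obtain glutaminyl-tRNA through an amidotransferase and not through a synthetase of their own. The enzymes fall into class I and class II, which have unrelated catalytic folds, and several cytosolic ones are held with scaffold proteins in the multisynthetase complex. Inherited variants of cytosolic synthetase genes are known causes of peripheral neuropathy.

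Synthetase transcripts took 0.336% of the footprints in replicate 1 and 0.352% in replicate 2, with Clopper-Pearson 95% intervals from 0.328 to 0.344 and from 0.347 to 0.358. The cytosolic enzymes took 0.295% in replicate 1 (0.287 to 0.303) and 0.306% in replicate 2 (0.301 to 0.311). The mitochondrial enzymes took 0.0408% (0.0380 to 0.0438) and 0.0466% (0.0448 to 0.0485). The summed cytosolic count was thus 7.23 times the mitochondrial count in replicate 1 and 6.57 times in replicate 2. These intervals, and all those that follow, cover counting error only and leave out variation between animals. Amplified fragments are not independent molecules, so the intervals can be too narrow even for counting error.

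Genes were compared per length. Footprint density is the CPM of a gene, summed over its transcripts, per kilobase of its longest annotated coding sequence. The median density of the 21 cytosolic synthetases was 63.9 in replicate 1 and 83.5 in replicate 2, or 73.7 ± 13.9 (SD, n = 2). The median of the 17 mitochondrial synthetases was 12.4 and 14.7, or 13.6 ± 1.68. The median was 22.0 and 24.6 over the 13317 protein-coding genes that averaged 10 or more footprints per library, called the tested genes below. In replicate 1, 17 of 21 cytosolic enzymes lay above every mitochondrial enzyme, and in replicate 2 this number was 19. Of the mitochondrial enzymes, 16 of 17 had a mean density below that of the median tested gene, against 1 of 21 cytosolic enzymes, Lars. Over all 21874 protein-coding genes the median averaged 6.22 over the replicates, below the lowest mitochondrial mean of 7.33. The cytosolic median was 5.16 and 5.67 times the mitochondrial median in the replicates, with an overlap at the low end of the cytosolic range.

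**Figure D1:**
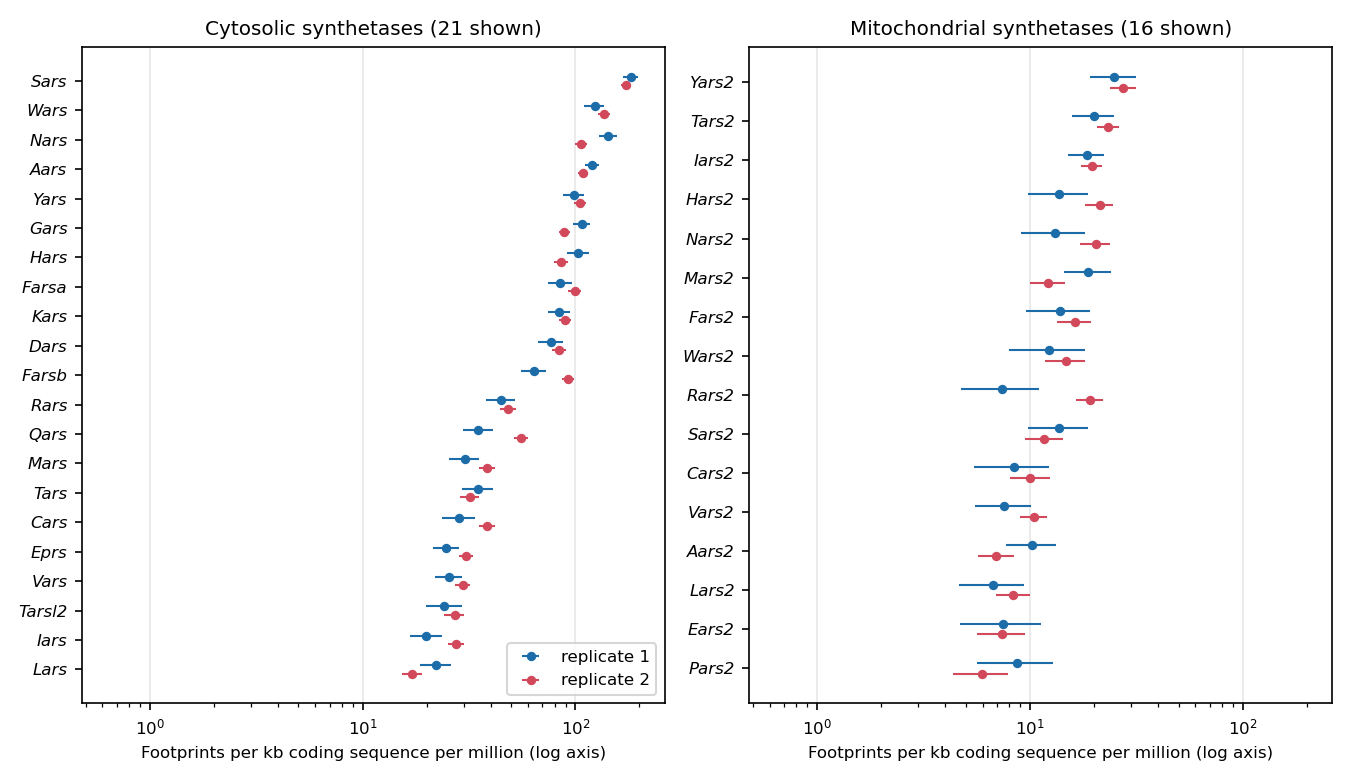
Footprint density of each synthetase (CPM per kilobase of coding sequence, log axis) in replicate 1 (blue) and replicate 2 (red), with Clopper-Pearson 95% intervals, ordered by the mean, for 21 cytosolic and 16 mitochondrial genes. The cytosolic enzymes reach up to 182 for Sars, while the highest mitochondrial value is 27.5 for Yars2.

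Many cytosolic synthetase genes are known targets of ATF4, the transcription factor of the amino acid response, which binds elements that contain TGATGNAA. RefSeq promoters of assembly GRCm38.p6, which run from 250 bases before to 50 bases after an annotated start, were found by symbol for 28 of 38 members. Searched on both strands, the letters TGATGNAA (TTNCATCA on the other strand) were present in 5 of 14 cytosolic and 0 of 14 mitochondrial members, and in 4.51% of the 27025 genes with a promoter in the same table. The following windows show 1 match in each of these 5 genes, read 5′ to 3′ on the strand of the gene, with the matched letters in capitals.
Aars, chr8:111033840-111033869, + strand: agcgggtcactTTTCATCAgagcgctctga
Gars, chr6:55037960-55037989, + strand: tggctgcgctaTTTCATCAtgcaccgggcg
Tars, chr15:11399655-11399684, - strand: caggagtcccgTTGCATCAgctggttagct
Iars, chr13:49682126-49682155, + strand: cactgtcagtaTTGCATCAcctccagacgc
Yars, chr4:129189895-129189924, + strand: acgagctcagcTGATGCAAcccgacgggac

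The matched letters begin 9 bases after the annotated start in Aars, 30 bases before it in Gars and 15 bases before it in Tars. In Iars they begin 7 bases and in Yars 3 bases after it. The genes with a match included upper cytosolic densities (Aars 114, Yars 102 and Gars 98.0 on average) and lower ones (Tars 33.4 and Iars 23.7). A match of letters is a description of the window and shows no binding.

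Sars, the seryl-tRNA synthetase, had the highest density, at 182 in replicate 1 (95% interval 167 to 197) and 173 in replicate 2 (164 to 182). It was separated from the next gene, Wars, in both libraries. Wars, the tryptophanyl enzyme, had densities of 123 and 136. Nars, the asparaginyl enzyme, had densities of 143 and 107. Aars, the alanyl enzyme, had 119 and 108, from the highest raw counts of the family, 648 and 1654. Yars, the tyrosyl enzyme, had 98.3 and 105. The mean densities of these 5 genes lay between percentiles 84.8 and 91.8 of the protein-coding genes tested. Nars lay above Wars and Aars in replicate 1 and below both in replicate 2, so these 3 genes have no settled order.

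A second set of cytosolic genes followed closely. Gars, the glycyl enzyme that also serves mitochondria, had densities of 107 and 88.9. Kars, the lysyl enzyme that likewise serves both compartments, had 84.0 and 89.2. Both dual-compartment genes thus lay with the upper cytosolic enzymes, far above the mitochondrial range. Hars (histidyl) had densities of 103 and 85.8, and Dars (aspartyl) a mean of 80.2 ± 4.75 (SD, n = 2), with the phenylalanyl subunits Farsa and Farsb between Hars and Rars at 92.0 and 78.2. By gene sums, a gap followed in both animals. Farsb had 63.9 and 92.6, and the next gene, Rars (arginyl), had 44.6 and 48.4, with separate intervals in each library. With coding transcripts alone, Farsa lay below Tars, a gene from below the gap, in replicate 1 and above it in replicate 2. Farsa had 94 and 347 coding footprints over 1527 nucleotides, and Tars had 141 and 365 over 2169.

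The cytosolic genes below this gap covered a narrower range. Qars, the glutaminyl enzyme, had densities of 35.0 and 55.5. Means were 34.4 ± 5.90 (SD, n = 2) for Mars (methionyl), 33.4 ± 2.01 for Tars (threonyl) and 33.4 ± 7.16 for Cars (cysteinyl). The lowest 5 cytosolic genes were Eprs, Vars, Tarsl2, Iars and Lars. Eprs, which encodes the glutamyl and prolyl activities in 1 polypeptide, had 24.7 and 30.6. Vars (valyl) had 25.4 and 29.5, and Tarsl2 had 24.2 and 27.1. Iars (isoleucyl) had 19.9 and 27.5. Lars (leucyl) had 22.1 and 17.1, the lowest mean of the cytosolic set at percentile 45.1.

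Tarsl2 and Tars encode related cytosolic threonyl enzymes, and their counts are uncertain where their sequences match. The density of Tars was 1.44 times that of Tarsl2 in replicate 1 (95% interval 1.11 to 1.87) and 1.18 times in replicate 2 (1.02 to 1.37). By gene sums, Tars thus lay above Tarsl2 in each animal. Coding transcripts held 59.8% and 49.4% of the Tarsl2 footprints and 100% of those of Tars. The ratio is therefore higher with coding transcripts alone.

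Among mitochondrial enzymes, Yars2 had the highest density, at 24.9 in replicate 1 (95% interval 19.3 to 31.7) and 27.5 in replicate 2 (23.8 to 31.5). Tars2 had 20.0 and 23.4, and Iars2 had 18.5 and 19.5. Hars2 had 13.8 and 21.3, and Nars2 had 13.1 and 20.4. Yars2, Tars2 and Iars2, the first 3 by mean density, kept their order among themselves in both animals, although the intervals of neighbours overlapped. By gene sums, Yars2 and Tars2 lay above all other mitochondrial enzymes in each animal. Iars2 did not, as it lay below Mars2 (18.9) in replicate 1 and below Hars2 and Nars2 in replicate 2. Coding transcripts held 53.0% and 50.7% of the Yars2 footprints and 58.0% and 58.4% of the Tars2 footprints. The share was 81.9% and 83.7% for Iars2 and 100% for Mars2. With coding transcripts alone, Mars2 lay above Yars2 and Tars2 in replicate 1, and Iars2 lay above both in replicate 2. The lowest 5 were Vars2 (7.57 and 10.4), Aars2 (10.2 and 6.97), Lars2 (6.72 and 8.35), Ears2 (7.50 and 7.37) and Pars2 (8.72 and 5.94). They rest on 22 to 56 footprints in replicate 1, and none of their neighbouring pairs was separated in both libraries. The other 7 mitochondrial genes had mean densities from 9.24 for Cars2 to 15.5 for Mars2.

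Of 20 neighbouring pairs in the cytosolic order, 2 had separate intervals in both libraries (Sars above Wars, and Farsb above Rars), and of 16 mitochondrial pairs none did. The order over the family was similar in the animals all the same. Spearman's rho between the replicates was 0.953 over the 38 genes, 0.948 over the 21 cytosolic and 0.679 over the 17 mitochondrial genes. These values describe genes of the same 2 libraries, and the mitochondrial genes have the fewest footprints, from 22 to 105 in replicate 1.

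Cytosolic and mitochondrial enzymes were then paired by amino acid. For 17 amino acids the table held a cytosolic and a mitochondrial synthetase, with Eprs used for glutamate and for proline and Farsa with Farsb for phenylalanine, so the pairs are not all independent. The cytosolic density was the higher in both animals for 17 of 17 amino acids. With the highest transcript of each gene in place of the gene sum, this held for 13 of 15 pairs, and not for isoleucine and methionine. With the gene sums, the 95% interval of the ratio lay above equality in both libraries for 16 of the 17 amino acids. The median log2 ratio was 1.98 in replicate 1 and 2.01 in replicate 2, or 2.00 ± 0.02 (SD, n = 2), a ratio of 3.99.

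**Figure D2:**
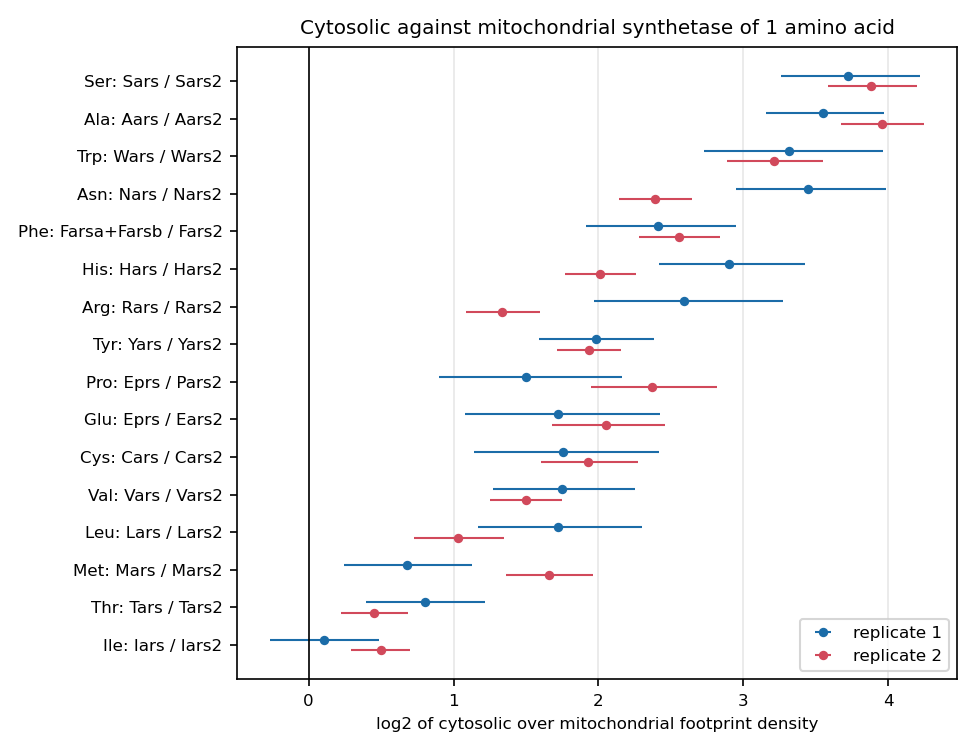
Log2 ratio of the footprint density of the cytosolic over the mitochondrial synthetase of the same amino acid in replicate 1 (blue) and replicate 2 (red), with counting 95% intervals, for 16 amino acids, ordered by the mean; the vertical line marks equal density. All 16 ratios shown lie above 0 in both replicates, and the interval for isoleucine in replicate 1 crosses 0.

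The pairs differed widely among amino acids. For serine, the cytosolic density was 13.2 times the mitochondrial one in replicate 1 (95% interval 9.56 to 18.7) and 14.8 times in replicate 2 (upper bound 18.4). For alanine it was 11.7 times (8.91 to 15.7) and 15.5 times (12.8 to 19.0). For tryptophan it was 9.95 times (6.62 to 15.6) and 9.26 times (7.40 to 11.7). These 3 pairs had the highest mean ratios, and the intervals of the replicates overlapped in each.

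At the other end, the isoleucine pair was close to equal. Iars had 1.08 times the density of Iars2 in replicate 1 (95% interval 0.831 to 1.40) and 1.41 times in replicate 2 (1.23 to 1.63). For threonine the ratio of Tars to Tars2 was 1.74 (1.32 to 2.32) and 1.37 (1.17 to 1.61). For methionine the ratio of Mars to Mars2 was 1.60 (1.18 to 2.19) and 3.16 (2.58 to 3.90), and these intervals did not overlap. In all, 13 of 17 pairs had overlapping intervals in the replicates, and the ratio was higher in replicate 1 for 9 pairs and in replicate 2 for 8. By gene sums, the low ratios of isoleucine and threonine came with both a low cytosolic and a high mitochondrial density within their compartments. Coding transcripts held 100% of the Tars footprints but 58.0% and 58.4% of those of Tars2. The threonine ratio is therefore higher with coding transcripts alone. For isoleucine the coding shares were similar, at 82.3% and 84.9% for Iars and 81.9% and 83.7% for Iars2.

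Farsa and Farsb encode the subunits of the cytosolic phenylalanyl enzyme, which holds equal numbers of each, whereas mitochondria use Fars2 alone. Farsa had densities of 84.9 in replicate 1 (95% interval 74.5 to 96.3) and 99.1 in replicate 2 (92.3 to 106). Farsb had 63.9 (55.5 to 73.1) and 92.6 (86.5 to 98.9). The ratio of Farsa to Farsb was 1.33 in replicate 1 (1.10 to 1.61) and 1.07 in replicate 2 (0.971 to 1.18), so equal density lay within the interval of the deeper library alone. On the log2 scale the mean ratio was 0.25 ± 0.22 (SD, n = 2). Its sign depended on how transcripts were counted: with protein-coding transcripts alone it was -0.38, and with the highest transcript of each gene it was -0.11.

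The multisynthetase complex was represented by 8 synthetases (Dars, Eprs, Iars, Kars, Lars, Mars, Qars and Rars) and by the scaffold proteins Aimp1, Aimp2 and Eef1e1, as set from textbook knowledge. Its synthetases had a median density of 32.6 in replicate 1 and 43.5 in replicate 2, or 38.0 ± 7.69 (SD, n = 2). The other 13 cytosolic synthetases had a median of 98.3 and 92.6, or 95.4 ± 4.05. The number of complex synthetases above the cytosolic median was 2 of 8 in replicate 1 and 1 of 8 in replicate 2. Among the other cytosolic genes it was 8 of 13 and 9 of 13. Dars and Kars were the complex members of highest density in both animals.

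The scaffold proteins had densities close to each other. Aimp1 had 74.2 in replicate 1 and 89.1 in replicate 2, Aimp2 had 92.3 and 99.9, and Eef1e1 had 100 and 99.2. In replicate 2 the intervals of the 3 ratios between them all included equality. In replicate 1 the ratio of Aimp1 to Eef1e1 was 0.742 (95% interval 0.567 to 0.974) and did not. Aimp2 and Eef1e1 lay above all 8 complex synthetases in mean density and Aimp1 above 7, with Kars the exception. The 3 scaffold genes lay between percentiles 81.3 and 84.4 of the tested genes.

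Coding length moved with these differences. The complex synthetases had a median coding sequence of 2530.5 nucleotides, against 1770 for the other cytosolic genes. Across the 21 cytosolic genes, Spearman's rho between coding length and density was -0.726 in replicate 1 and -0.700 in replicate 2, against -0.446 in each replicate over the 13317 protein-coding genes. The 4 cytosolic genes with a coding sequence over 3000 nucleotides (Eprs, Vars, Iars and Lars) had mean densities between 19.6 and 27.7. Over the 17 mitochondrial genes rho was -0.267 and -0.265. Coding length is also the divisor in density, so a negative rho can follow in part from that definition. These values of rho are descriptions across genes that share their libraries. The part of length in the difference between the groups was not tested.

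Class II cytosolic enzymes had higher densities than class I enzymes in both animals. The median over 12 class II genes was 84.4 in replicate 1 and 89.0 in replicate 2, and over 10 class I genes it was 29.3 and 38.5, with Eprs counted in both. In each replicate 8 of 12 class II genes and 2 of 10 class I genes, Wars and Yars, lay above the cytosolic median. The median coding sequence was 2614.5 nucleotides in class I and 1822.5 in class II. Among mitochondrial enzymes the class II median (8 genes) was also the higher in both animals, at 13.4 against 8.40 for class I (9 genes) in replicate 1 and 15.9 against 12.2 in replicate 2. The means over the replicates were 14.6 ± 1.74 and 10.3 ± 2.69 (SD, n = 2), and the difference was not tested.

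The 6 cytosolic genes linked to inherited peripheral neuropathy (Aars, Gars, Hars, Mars, Wars and Yars) had a median density of 105 in replicate 1 and 96.8 in replicate 2. Of these, 5 lay between percentiles 83.6 and 88.1, and Mars lay at percentile 60.6. The list was described by its values alone.

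The other proteins of tRNA charging were taken from a fixed list of 16 genes, including the scaffold. Their median density was 34.5 in replicate 1 and 41.9 in replicate 2. In the exact binomial test between the libraries, described further on, 2 of 16 were called, against 17.4% of all genes, both lower in replicate 2. They were Gatc, a subunit of the mitochondrial amidotransferase (adjusted p 0.0376), and Sephs2, which makes the selenium donor for selenocysteine (0.00180). The amidotransferase subunits Qrsl1, Gatb and Gatc, which stand in for a mitochondrial glutaminyl enzyme, differed from each other. Qrsl1 had densities of 14.3 and 14.6, Gatb 9.60 and 12.6, and Gatc 67.5 and 46.7. Qrsl1 and Gatb thus lay within the range of the mitochondrial synthetases, and Gatc above it in both animals. Mtfmt, which formylates the mitochondrial initiator tRNA, had 13.4 and 13.3. Trnt1, which adds the CCA end that synthetases charge, had 32.0 and 47.2. Aarsd1, an editing factor for mischarged alanyl-tRNA, had 49.3 and 51.2.

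The cytosolic synthetases were set beside the factors that use their product. Over 9 cytosolic elongation and termination factors the median density was 282 in replicate 1 and 210 in replicate 2. All 21 cytosolic synthetases lay below this median in both animals. Eef1a1, which delivers charged tRNA to the ribosome, had 1374 and 1155, or 11.5 and 10.7 times the density of Aars; its counts are uncertain because it has near-identical pseudogenes. Of the 9 factors, 6 lay above Sars in each replicate, while the termination factors Etf1 (67.3 and 62.2) and Gspt1 (86.3 and 98.0) lay within the synthetase range.

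The mitochondrial synthetases had a lower density than the proteins of the mitochondrial ribosome. The 77 mitochondrial ribosomal protein genes had a median of 72.0 in replicate 1 and 73.6 in replicate 2. All 17 mitochondrial synthetases lay below this median in both animals, and 71 of 77 ribosomal protein genes in replicate 1 and 73 of 77 in replicate 2 lay above every mitochondrial synthetase. The ribosomal protein genes are short, with a median coding sequence of 579 nucleotides against 1659 for the synthetases. The 9 mitochondrial translation factors had a median of 18.7 and 22.5, and 14 of 17 synthetases in replicate 1 and 15 in replicate 2 lay below it. Tufm, the mitochondrial counterpart of Eef1a1, had 84.4 and 85.9. These gene sets were compared by their values, without a test, because a single group of 2 animals offers none.

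**Figure D3:**
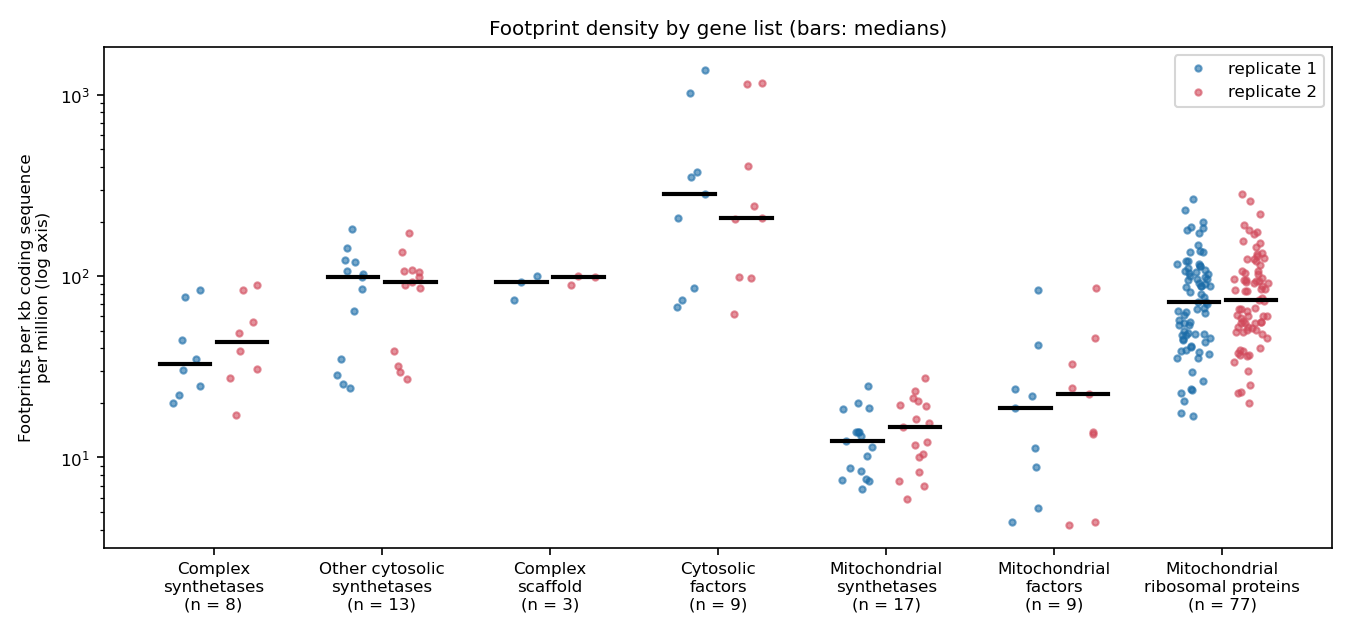
Footprint density (CPM per kilobase of coding sequence, log axis) of every gene in the synthetase groups and in the lists set beside them; each point is a gene in replicate 1 (blue) or replicate 2 (red), and black bars are medians. The mitochondrial synthetases (medians 12.4 and 14.7) lie below the mitochondrial ribosomal proteins (72.0 and 73.6) and near the mitochondrial factors (18.7 and 22.5).

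Footprints of a synthetase gene were spread over several annotated transcripts. The family had 209 transcripts, of which 83 were protein coding, and 10 genes had a single transcript. Protein-coding transcripts took 76.6% of the family's footprints in replicate 1 (95% interval 75.6 to 77.7) and 73.2% in replicate 2 (72.6 to 73.9). Over all genes with a coding transcript these shares were 81.1% and 79.5%. Retained-intron transcripts took 15.2% (14.3 to 16.1) and 17.1% (16.6 to 17.7) in the family, against 9.61% and 10.2% over all such genes. The annotation differed in the same direction. The family had 77 retained-intron beside 83 coding transcripts, against 15374 beside 49617 over all such genes. The part of annotation in the higher share was not tested. Retained-intron forms share exons with the coding forms, so their footprints may come from either.

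The share on coding transcripts differed between members. It was 100% for 12 genes, among them Kars, whose 3 coding transcripts held 96, 98 and 100 footprints in replicate 1 and 277, 325 and 278 in replicate 2. How fragments common to these forms were assigned is not given in the sources used here, and the cytosolic and mitochondrial forms of Kars were not resolved. The other 11 genes were Fars2 and the 10 with a single transcript. The coding share lay under 50% on average for 7 genes. Among them, Vars2 had 31.1% (95% interval 18.2 to 46.7) and 28.0% (21.5 to 35.3), Ears2 31.8% and 42.6%, and Wars2 28.0% and 50.0%. Yars had 40.8% and 39.6%, Farsa 38.8% and 43.6%, and Rars2 45.8% and 42.9%. For such genes the handling of fragments shared between transcripts can change the density, whereas the 10 genes with 1 transcript offer no such choice among their own forms. Among the single-transcript genes, the cytosolic median was 103 and 85.8 (5 genes) and the mitochondrial median 10.2 and 10.1 (5 genes).

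**Figure D4:**
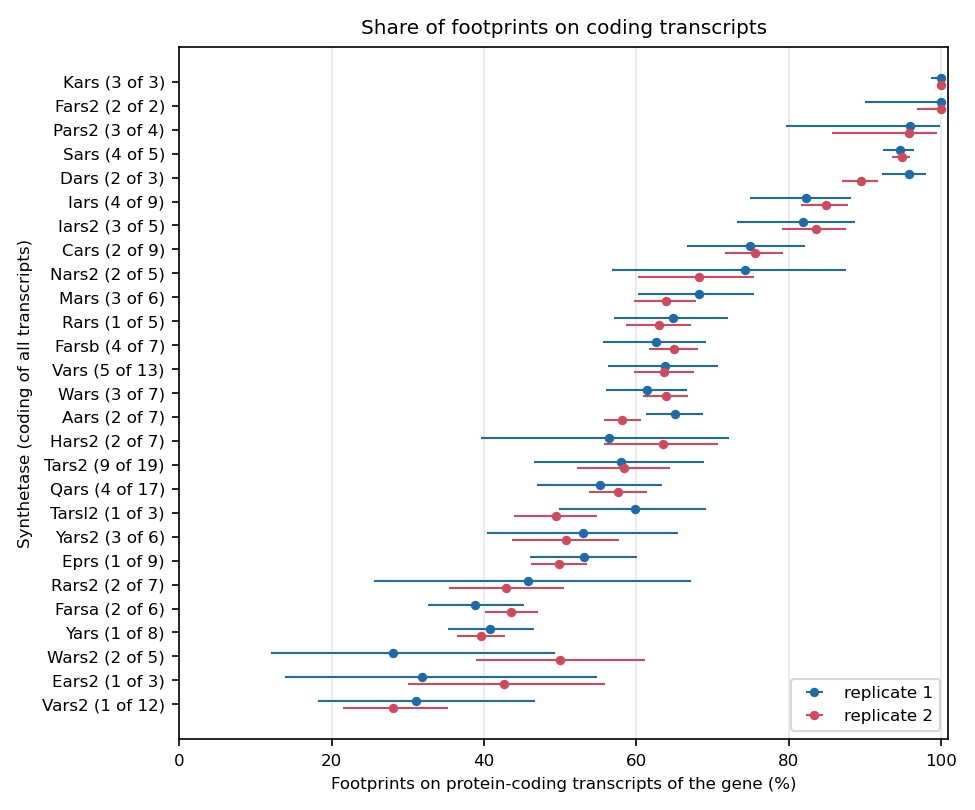
Share of each gene's footprints that fell on its protein-coding transcripts (%), in replicate 1 (blue) and replicate 2 (red) with Clopper-Pearson 95% intervals, for 27 synthetases with more than 1 transcript; numbers in brackets are coding and all annotated transcripts. The shares shown run from 28.0% for Vars2 in replicate 2 and Wars2 in replicate 1 to 100% for Kars and Fars2.

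For each gene, the counts of the replicates were set against each other in an exact binomial test (two-sided), scaled by TMM (trimmed mean of M values). Adjustment followed Benjamini and Hochberg and ran over the 16427 genes that averaged 10 or more counts. It compares 2 libraries and covers counting noise alone. All 38 members passed the count filter. The test called 11 of 38 members, 3 higher and 8 lower in replicate 2. Over all genes tested it called 17.4%, with 5.95% higher and 11.5% lower, and among genes that averaged 100 or more counts it called 29.8%. Of the 27 members with such counts, 8 were called, a share near that background. The median log2 ratio of replicate 2 over replicate 1 was 0.03 for the members and 0.01 for all genes tested.

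Members higher in replicate 2 were Rars2, Qars and Farsb. Rars2, the mitochondrial arginyl enzyme, rested on 24 and 175 footprints, at densities of 7.40 (95% interval 4.74 to 11.0) and 19.1 (16.4 to 22.2). Its log2 ratio was 1.21, the highest of the family, and its adjusted p in the exact binomial test was 0.000252. Qars had a log2 ratio of 0.54 (adjusted p 0.000297 in the same exact test) and Farsb one of 0.41 (0.00200).

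Members lower in replicate 2 were Mars2 (log2 ratio -0.74), Aars2 (-0.66), Nars (-0.54), Lars (-0.49), Gars (-0.40), Hars (-0.39), Aars (-0.27) and Sars (-0.19). Nars, with 447 and 944 footprints, had the lowest adjusted p in the exact binomial test, 6.33e-09, and Sars the highest of the 8, 0.0452. The list linked to neuropathy held 3 of the 8, Aars, Gars and Hars. All 3 averaged 100 or more counts, and 20.5% of the genes with such counts were called lower. Mars2, the mitochondrial methionyl enzyme, had densities of 18.9 and 12.2 from 62 and 113 footprints. Aars2 rested on 56 and 108 footprints. With library totals in place of TMM, which raises log2 ratios by about 0.13, 10 members were called against 19% of all genes, 7 higher and 3 lower, and 6 of them were among the 11. Aars, Aars2, Hars, Lars and Sars lost their calls under that scaling, with adjusted p from 0.0521 for Hars to 0.578 for Sars in the exact binomial test, and Cars, Eprs, Iars and Mars were called higher. Gars, Nars and Mars2 stayed lower, and Qars, Farsb and Rars2 stayed higher.

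The direction moved with the number of annotated transcripts, a comparison added after the values were seen. Of the 10 members with 1 transcript, 8 had a log2 ratio below 0, with a median of -0.39, and 6 were called, all lower, where 25.6% of protein-coding genes with 1 transcript were called lower. Of the 17 members with 6 or more transcripts, 15 had a log2 ratio above 0, with a median of 0.22, and 3 were called higher, where 15.3% of protein-coding genes in that class were. Aars was called lower. The 11 members with 2 to 5 transcripts had a median of -0.01 and 1 call, Sars. The same was seen over all protein-coding genes tested. Over these genes the median log2 ratio was -0.28 in 3412 genes with 1 transcript, -0.02 in 5352 genes with 2 to 5 and 0.17 in 4553 genes with 6 or more, and the test called 26.4%, 15.7% and 19.9% of them.

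**Figure D5:**
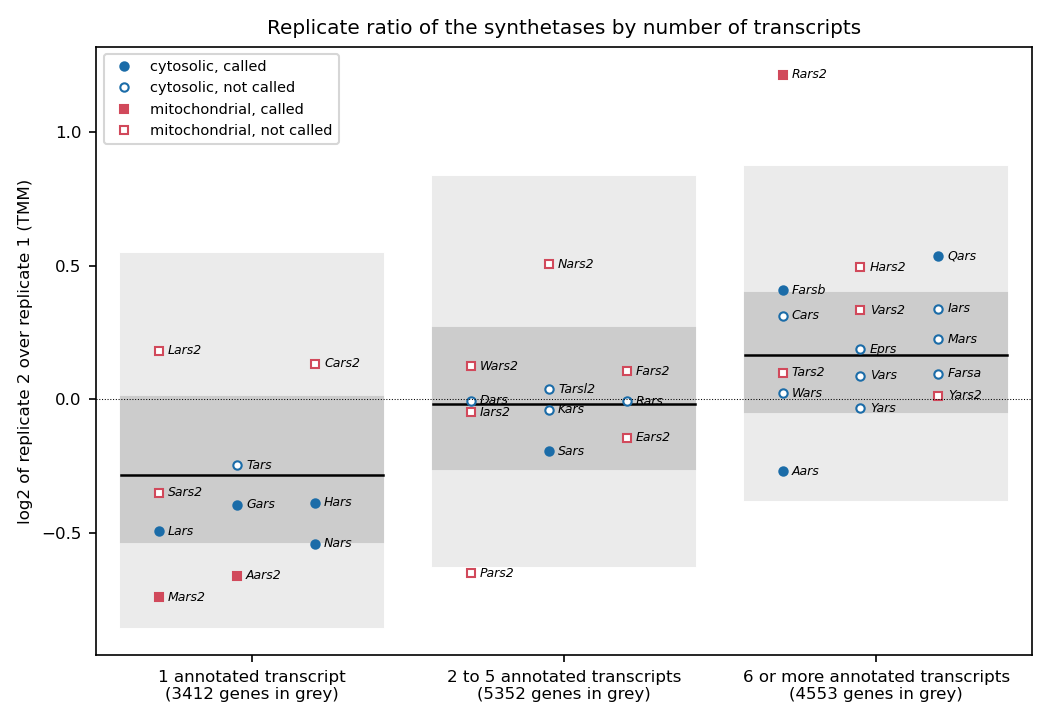
Log2 ratio of replicate 2 over replicate 1 (TMM scaling) for 37 synthetases, by number of annotated transcripts; circles are cytosolic and squares mitochondrial, filled where called by the exact binomial test. Grey boxes give the central 50% (dark) and 90% (light) of all protein-coding genes tested in that class, with their median as a line at -0.28, -0.02 and 0.17.

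When the expected ratio was taken from genes in the same class of transcript number, 5 members remained called, against 14% of all genes. That ratio came from all genes tested, coding or not, with median log2 ratios of -0.14, -0.02 and 0.17. For genes with 1 transcript it thus removed less than the -0.28 of protein-coding genes. Calls against the protein-coding medians were not tested. The 5 members were Rars2 and Qars, higher in replicate 2, and Nars, Gars and Aars, lower. With the highest transcript of each gene 7 members were called, against 9.41% of all genes, and all 7 were among the 11. With edgeR's exact test, which adds a common dispersion estimated from the same 2 libraries, 0 members were called against 0.067% of all genes. Without adjustment, 1 member and 719 genes in all had a p under 0.05. That dispersion takes the difference between the libraries as spread, so few calls follow from the setting itself. Marker genes of several cell types also differed between the libraries. The summed level of 6 neuronal markers was 6756 CPM in replicate 1 and 5188 in replicate 2, and that of 6 oligodendrocyte markers 803 and 1144, with every one of these markers detected in both. Of the neuronal markers 5 of 6 were called lower. The choroid plexus marker Ttr was called lower, at 582 and 277 CPM, and the other 3 choroid plexus markers (Folr1, Clic6 and Kcne2) were not called. Their part in the synthetase differences was not tested.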

How the data were processed

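Ribosome-protected fragments from the pooled polysome fractions of each of 2 brains were sequenced, and the authors deposited whole-number counts per transcript with no normalization, together with annotated lengths (other, in nucleotides). Per the submitters' processing notes, Trimmomatic 0.36, Bowtie2 2.2.6, SAMtools and GRCm38.p4 were used; the counter, the annotation release and the treatment of duplicates, strand and multiple matches are not given in the sources used here. Fragments that fit several transcripts or near-identical genes can therefore shift between them.

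Counts were summed per gene identifier. Shares and CPM use library totals. TMM factors were 0.957 and 1.04 (edgeR 4.0.16), and log2 ratios carry a prior of 0.5 CPM. Genes with an adjusted p under 0.05 were called; edgeR's quasi-likelihood fit needs groups to compare and was not run. Intervals are 95% Clopper-Pearson (SciPy 1.17.1). Floors take 3 counts. The replicate test was run on simulated counts that held counting noise and set changes alone. That simulation had no variation between animals, so it says nothing on how the test behaves under it. The labels call the samples biological replicates, but p-values and intervals cover counting error only.

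All members could be named. Both replicates' values are given for the 5 highest and 5 lowest densities per compartment, called members, subunits, scaffold, dual-compartment genes and the 3 highest and lowest pairs. Members and lists were chosen with earlier results of these data known. Alternatives were DESeq2 1.42.0 size factors, library totals, other filters, coding or highest transcripts, transcript length, a density trend and leaving out each replicate. Of the members, 38 matched the RefSeq table, 1 (Mars) by an older symbol. Amino acid demand was not analysed here, and the individual values of 1 member and 1 promoter window are not reported here. Coordinates are given for promoter windows alone.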

Additional observations from a re-analysis of the deposited data

How the results depend on the processing

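Of 29 alternatives other than leaving out a replicate, 15 moved a value by less than the spread between replicates or, for the count of calls, by less than 1.5 times. The 14 that left out a replicate could not exceed that spread with n = 2 and show nothing on stability. For the calls only their number was compared, not which genes were called or in which direction. The 11 calls stayed 11 with DESeq2 size factors. With library totals 10 members were called (19% of all genes), and 6 of them were among the 11. Of those 10, 7 were higher and 3 lower, against 3 higher and 8 lower of the 11. The 11 calls became 7 with the highest transcript per gene (9.41% of all genes) and 7 with the density trend removed (16.1% of all genes). They became 5 with the expected ratio by number of transcripts (14%) and 0 with edgeR's exact test (0.067%). The mitochondrial share went from 0.0437% to 0.0498% with Tarsl2 counted as mitochondrial. The cytosolic median density of 73.7 was 50.6 with protein-coding transcripts alone, 53.9 per transcript length and 55.9 with the highest transcript; the mitochondrial median of 13.6 was 7.33 per transcript length. The median log2 ratio for 1 amino acid, 2.00, was 2.18 with coding transcripts alone, 2.69 per transcript length and 2.31 with the highest transcript. In that last setting 13 of 15 pairs stayed above 0 in both replicates, and isoleucine and methionine did not; the other settings kept 17 of 17. The log2 ratio of Farsa over Farsb turned from 0.25 to -0.38 with coding transcripts alone and -0.11 with the highest transcript. The other cytosolic synthetases stayed above those of the complex in each setting, with medians of 66.5 against 32.4, 63.2 against 33.0 and 65.2 against 33.0. Class II likewise stayed above class I, with medians of 95.7 against 31.7, 66.4 against 28.9 and 90.2 against 26.6. Leaving out either replicate, the cytosolic median lay between 63.9 and 83.5, the mitochondrial between 12.4 and 14.7, that of the complex between 32.6 and 43.5, the log2 ratio per amino acid between 1.98 and 2.01 and that of Farsa over Farsb between 0.10 and 0.41; the shares lay between 0.295% and 0.306% (cytosolic) and between 0.0408% and 0.0466% (mitochondrial). Depth limits the mitochondrial genes most. The planned comparison with amino acid demand was not run, because protein sequences were not used here. No paired analysis was possible because there is a single group.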
